A study of Mus musculus with 18 samples.

Results

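Uap1l1 and Dpp7 are neighbouring protein-coding genes on mouse chromosome 2, and both had lower RNA in nasal mucosa of the C10 group. They are 2 of the 54532 genes in the count table and 2 of the 18291 genes with enough reads to test. They were chosen by their fall in C10 against CRS, so their values in that comparison are a description and carry no test. Every other gene of chromosome 2 whose lower coordinate lies within 52276 bases below or 67724 bases above that of Dpp7 was described beside them as local context. That window holds 6 other genes, of which 5 were expressed well enough to be tested.

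The samples are bulk poly(A) RNA-seq libraries of mouse nasal mucosa, 18 in all, 6 from each group, named CON, CRS and C10. CRS mice received 20 µg papain, a plant protease that inflames the airway, in 20 µL intranasally over days 0 to 2 and again over days 7 to 11, as a model of chronic rhinosinusitis. The protocol gives C10, named in the study's title as an inhibitor of the DNA repair and redox enzyme APE1, to CRS mice at 10 mg/mL. It was instilled at 10 µL into each side once a day for 10 days from the opening papain dose, and the C10 group is therefore taken to hold papain-treated mice that also received the compound. The labels used here give no treatment for CON and no vehicle dose for CRS, so the compound and the added dosing cannot be told apart. The sources used here do not give strain, age, sex or hour of collection. They also do not say that libraries come from different mice, so the p-values reflect spread among libraries, which may be technical.

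Uap1l1 is named for its likeness to Uap1, the enzyme that joins N-acetylglucosamine phosphate to UTP and so makes UDP-GlcNAc. UDP-GlcNAc is the sugar donor for N-glycans, mucin-type and matrix glycans, O-GlcNAc on proteins inside the cell and, through further steps, sialic acid. Dpp7, also called dipeptidyl peptidase 2, is a serine protease of acidic vesicles that clips dipeptides from the amino end of peptides with proline or alanine in the second place. Its nearest relative by family is the lysosomal carboxypeptidase Prcp. Nasal mucosa is rich in secreting glands and epithelium, which consume UDP-GlcNAc for mucus glycoproteins.

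On build mm10, Dpp7 (ENSMUSG00000026958) spans chromosome 2, 25352276 to 25356359, and Uap1l1 (ENSMUSG00000026956) spans 25359889 to 25365682. Both lie on the minus strand, so Uap1l1 is read towards Dpp7, and 3529 bases separate the end of Uap1l1 from the start of Dpp7. On the other side of Dpp7, Man1b1 is read towards it from the plus strand, and the 2 annotated ends are 63 bases apart. Uap1l1 starts 6638 bases from the start of Sapcd2, which is read the other way. Neither Uap1l1 nor Dpp7 overlaps another gene of the table, whereas Entpd2 overlaps Npdc1 and the long noncoding RNA AA543186 overlaps Man1b1. Entpd2 and Npdc1 are both on the plus strand, so strand cannot separate reads of their overlap. AA543186 and Man1b1 are on opposite strands, and the sources used here do not state whether counting used strand. Reads of either pair may thus be shared.

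The stretch between the 2 genes holds the upstream region of Dpp7, shown here because both genes differed together and it is the sequence next to the start of Dpp7. The letters are from the RefSeq promoter table on GRCm38.p6, whose chromosomes are those of mm10, at chr2:25356360-25356582 on the minus strand, 223 bases written 5′ to 3′ and ending just outside the annotated gene. Capitals mark matches to TCACGTGA and to TCATGTGA.

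Dpp7 upstream: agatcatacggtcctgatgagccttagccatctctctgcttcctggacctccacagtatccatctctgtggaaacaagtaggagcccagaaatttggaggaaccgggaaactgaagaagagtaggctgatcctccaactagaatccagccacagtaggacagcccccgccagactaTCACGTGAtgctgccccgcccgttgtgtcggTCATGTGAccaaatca

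The letters CACGTG are the core of the E-box read by several helix-loop-helix factors, and the longer TCACGTGA, which contains CACGTG and reads the same on both strands, resembles the sequence described for the MiT/TFE factors of lysosomal genes. Searched on both strands in windows of 300 bases, CACGTG occurred in 2349 of 32851 RefSeq promoters (7.15%) and TCACGTGA in 320 (0.974%). Dpp7 held 1 TCACGTGA, at 25356399 to 25356406, which is 67 bases before the RefSeq start. TCATGTGA was added to the search after the Dpp7 letters were seen. It occurred in 324 promoters (0.986%) and 2 times in the Dpp7 window, with 1 match in the stretch printed above at 25356368 to 25356375, 36 bases before the RefSeq start, and the other running past its end. Of the other genes in the window, AA543186, Man1b1, Sapcd2, Entpd2 and Npdc1 are in the promoter table and hold neither CACGTG nor TCATGTGA. GGGCGG occurred in Dpp7 and in all 5 of these neighbours, against 35.7% of all promoters, while TGACGTCA (1.79% of all promoters), CCAAT (37.4%), CCGGAAG (8.86%) and TATAAA (13.6%) occurred in none of the 6. These matches are letters only, and no measurement of binding is used here. Uap1l1 was not analysed here for promoter letters.

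Libraries held 15883573 to 18433866 counted reads. The defining markers of the tissue were present in every group, with all 5 olfactory neuron markers and all 8 markers of nasal epithelium and glands above 0. CRS 1, CRS 2 and CRS 5 were the libraries least like their own group, with a mean Pearson r over genes of 0.94, 0.939 and 0.952 with the other 5 CRS libraries, against 0.956 to 0.973 for the remaining 15 libraries. No pair of libraries agreed within sampling noise.

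Uap1l1 was lower in every C10 library than in any other library. Its level, in read counts scaled to library size with TMM factors (CPM), ran from 44.5 in CON 3 through a median of 54.5 to 78.5 in CON 5. In CRS it ran from 56.9 through a median of 65.5 to 71.2, and in C10 from 26.5 through a median of 31.7 to 35.4. The C10 range thus lay wholly below the other ranges, which overlapped each other. Group means were 56.6 ± 12.9 CPM in CON, 65.3 ± 4.76 in CRS and 31.7 ± 3.26 in C10 (SD, n = 6 each). The spread differed between groups, with a coefficient of variation of 22.9% in CON, 7.28% in CRS and 10.3% in C10. Counting error alone is 2.66 to 4.91%, since each library held 415 to 1411 reads of Uap1l1.

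Dpp7 showed the same order of groups at a lower level. It ran from 18.7 through a median of 21.3 to 35.0 CPM in CON, from 19.7 through 26.8 to 30.2 CPM in CRS, and from 11.2 through 12.4 to 15.2 CPM in C10. Again every C10 library lay below every CON and CRS library, and the CON and CRS ranges overlapped. Means were 23.3 ± 6.0 CPM in CON, 25.9 ± 4.06 in CRS and 13.0 ± 1.70 in C10 (SD, n = 6 each). The highest library was CON 5 for both genes. Each library held 186 to 629 reads of Dpp7, a counting error of 3.99 to 7.33%, below the coefficients of variation of 25.8% in CON, 15.6% in CRS and 13.1% in C10.

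**Figure D1:**
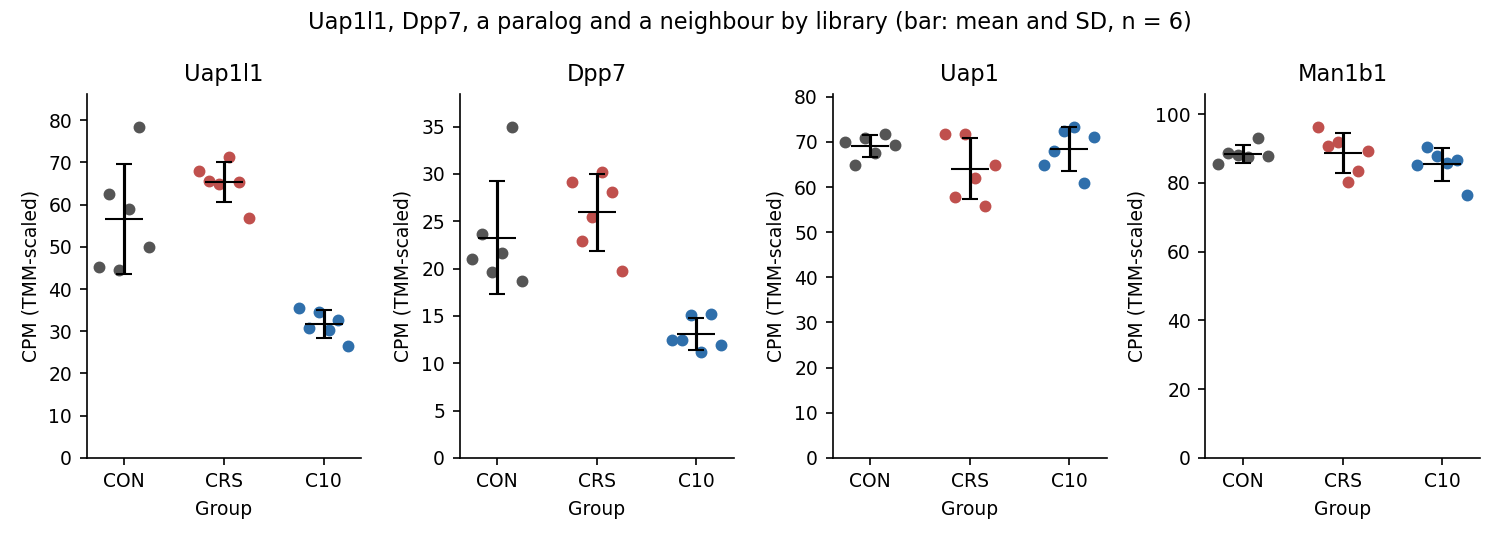
TMM-scaled CPM (vertical axes, starting at 0) of Uap1l1, Dpp7, the paralog Uap1 and the neighbour Man1b1 in each of 18 libraries by group, with the group mean and SD (n = 6) as bars. For Uap1l1 and Dpp7 the 6 C10 libraries sit at 26.5 to 35.4 and 11.2 to 15.2 CPM, below all CON and CRS libraries, while for Uap1 and Man1b1 the 3 groups overlap.

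Per kilobase of gene length, in the deposited FPKM values, Uap1l1 averaged 13.8 in CON, 16 in CRS and 7.68 in C10, and Dpp7 averaged 6.91, 7.73 and 3.86. Over all 18 libraries the mean FPKM of Uap1l1 was 12.5, above 77.8% of tested genes, and that of Dpp7 was 6.17, above 59.5%. The ratio of their FPKM was 2.01 ± 0.207 in CON, 2.09 ± 0.216 in CRS and 2.01 ± 0.227 in C10 (SD, n = 6 each).

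In C10 against CRS, the comparison by which they were selected, the log2 fold change was -1.04 ± 0.12 (SE, 95% interval -1.30 to -0.79) for Uap1l1, a 2.06-fold difference. For Dpp7 it was -0.99 ± 0.15 (-1.30 to -0.68), a 1.99-fold difference. In this tissue fewer cells of a type and less RNA per cell cannot be told apart. Of all 18291 genes 15 were called in either direction (0.082%), 12 of them lower (0.0656%), and in 96 (0.525%) all 6 C10 libraries were below all 6 CRS libraries. Both genes are among these by choice, Uap1l1 with the smallest p of the 12 lower genes and Dpp7 with the fourth. The members of that call nearest the threshold were Atp6v0c (-0.43 ± 0.08) and Ppargc1a (-0.62 ± 0.12), and just outside it lay Atp6v0b (-0.48 ± 0.09) and Hexa (-0.85 ± 0.16). Without CRS 2 and CRS 5 the log2 fold change was -1.06 ± 0.14 for Uap1l1 and -1.02 ± 0.17 for Dpp7. Leaving out any 1 library gave -1.08 to -1.01 for Uap1l1 and -1.06 to -0.95 for Dpp7.

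Neither gene passed the test in CRS against CON. In CRS against CON the log2 fold change was 0.21 ± 0.12 (95% interval -0.04 to 0.45, edgeR adjusted p = 0.443) for Uap1l1 and 0.16 ± 0.14 (-0.15 to 0.46, edgeR adjusted p = 0.65) for Dpp7. These intervals still allow a rise of up to 0.45 or 0.46 on the log2 scale. The CRS libraries are shared with the comparison that chose the genes, so the choice may bear on these values too. Of all genes in CRS against CON, 1 of 18291 (0.00547%) was called by edgeR at an adjusted p under 0.05, 2569 had an unadjusted p under 0.05, and DESeq2 called 178.

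Both genes also fell in C10 against CON, a comparison that the choice did not use but that shares its C10 libraries. Uap1l1 fell 1.79-fold (log2 fold change -0.84 ± 0.12, 95% interval -1.09 to -0.59, edgeR adjusted p = 0.0108). Dpp7 fell 1.78-fold (log2 fold change -0.84 ± 0.15, -1.14 to -0.53, edgeR adjusted p = 0.0294). Of all genes 29 were called in this comparison (0.159%), 21 of them lower (0.115%), and in 198 (1.08%) every C10 library was below every CON library. Uap1l1 passed in all 28 alternative fits, with log2 fold changes of -0.90 to -0.73. Dpp7 passed in 21 of 28, and its edgeR adjusted p rose to between 0.0514 and 0.108 when CON 2, CON 4, C10 1, C10 2, C10 4, C10 5 or C10 6 was left out, with log2 fold changes of -0.89 to -0.80. Because the C10 libraries are shared with the comparison that chose the genes, this fall is not independent support for the first.

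The ratio of the 2 genes was compared between groups. The mean log2 ratio of Uap1l1 to Dpp7 in CPM was 1.29 ± 0.15 in CON, 1.35 ± 0.15 in CRS and 1.28 ± 0.16 in C10 (SD, n = 6 each). The difference in this ratio was 0.059 for CRS minus CON (95% interval -0.15 to 0.24, two-sided exact permutation p = 0.496, adjusted over the 3 comparisons p = 0.744). It was -0.003 for C10 minus CON (-0.21 to 0.20, exact permutation p = 0.957, adjusted p = 0.957). For C10 minus CRS it was -0.062 (-0.26 to 0.15), a description only, since choosing 2 genes that fell in that comparison favours a ratio that stays near the same value. All groupings of 6 libraries against 6 can give a p as small as 0.00216. The 2 tested comparisons each share a group of libraries with the one that chose the genes, so the choice may bear on them too. Their intervals leave room for a difference between the genes of up to 0.24 on the log2 scale.

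Within CON and within CRS the 2 genes also varied together from library to library. Over the 6 CON libraries Pearson's r of their log2 CPM was 0.893 (exact permutation p = 0.0125, adjusted over 3 groups p = 0.0188) and Spearman's rho was 0.829 (exact permutation p = 0.0583, adjusted p = 0.0875). Over the 6 CRS libraries r was 0.906 (exact permutation p = 0.00556, adjusted p = 0.0167) and rho was 0.829 (exact permutation p = 0.0583, adjusted p = 0.0875). Over the 6 C10 libraries r was 0.556 (exact permutation p = 0.267) and rho was 0.714 (exact permutation p = 0.136), neither of which passed. Without the 2 libraries farthest from the Uap1l1 median, r was 0.684 in CON (without CON 3 and CON 5), 0.604 in CRS (without CRS 4 and CRS 6) and 0.91 in C10 (without C10 1 and C10 6). With 5 libraries the CON relation passed 0.05 no longer without CON 2, 3, 4 or 5, and the CRS relation no longer without CRS 1, 4 or 6. With 1 library left out r was 0.735 to 0.927 in CON and 0.724 to 0.974 in CRS. A test on 5 libraries has fewer pairings and passes less readily, so these losses cannot tell whether the relations rest on single libraries. Whether r differs between groups was not tested.

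**Figure D2:**
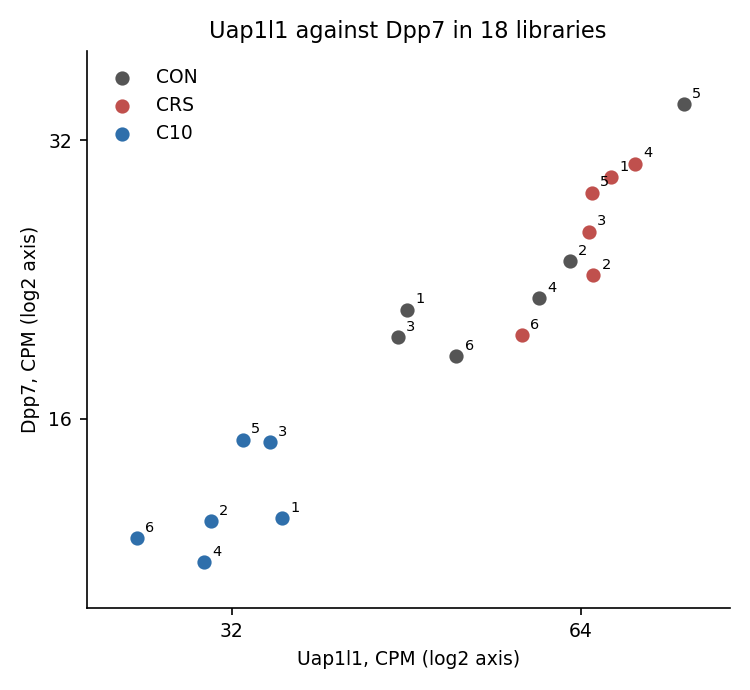
CPM of Uap1l1 (horizontal) against CPM of Dpp7 (vertical), both on log2 axes, for 18 libraries numbered by replicate and coloured by group. The 6 C10 libraries lie in the lower left, with Dpp7 at 15.2 CPM or less, and CON 5 (78.5 and 35.0 CPM) lies at the upper right.

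None of the 5 other expressed genes of the window was called by edgeR in any comparison, and those with an unadjusted p under 0.05 numbered 0 in CRS against CON, 1 in C10 against CRS and 0 in C10 against CON. Of all genes 14%, 13.2% and 13.1% had such a p in these comparisons, in the same order. DESeq2 called 0 of the 5 in each comparison. Limma-voom called 1, Entpd2, in C10 against CRS only, where it called 548 of all genes. Beside a background of 0.082% of genes called by edgeR in C10 against CRS, its count of 0 of 5 is no result about these neighbours. Their intervals are given instead.

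Man1b1, an endoplasmic reticulum mannosidase that trims N-glycans of misfolded proteins, ends 63 bases from the end of Dpp7 and had the narrowest interval. Its CON libraries held 85.4 to 93.0 CPM, its CRS libraries 80.4 to 96.4 and its C10 libraries 76.5 to 90.6, and the 3 ranges overlapped. Its log2 fold change was -0.05 ± 0.06 (95% interval -0.17 to 0.06) in C10 against CRS and -0.05 ± 0.06 (-0.17 to 0.07) in C10 against CON. Npdc1, a membrane protein first described in neural cells, held 125 to 145 CPM in CON, 112 to 182 in CRS and 106 to 175 in C10, with a log2 fold change of -0.08 ± 0.12 (-0.32 to 0.17) in C10 against CRS and 0.06 ± 0.12 (-0.18 to 0.31) in C10 against CON.

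Entpd2, an ectoenzyme that splits extracellular ATP, was the neighbour with the lowest value in C10 against CRS. It ran from 9.67 through a median of 11.4 to 15.1 CPM in CON, from 9.30 through 15.4 to 18.2 in CRS and from 7.17 through 10.7 to 13.3 in C10. The C10 and CRS ranges overlapped, with CRS 1 at 9.30 and CRS 4 at 12.1 CPM below C10 5 at 13.3. Its log2 fold change was -0.51 ± 0.17 (95% interval -0.88 to -0.15, edgeR adjusted p = 0.206) in C10 against CRS, -0.36 ± 0.18 without CRS 2 and CRS 5, and -0.19 ± 0.17 in C10 against CON, and limma-voom with quality weights gave an adjusted p of 0.032 in C10 against CRS.

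Sapcd2, which helps orient the mitotic spindle, and AA543186 were the scarcest of the window. Sapcd2 averaged 2.54 CPM in CON, 2.26 in CRS and 2.86 in C10, with a log2 fold change of 0.34 ± 0.22 (95% interval -0.12 to 0.80) in C10 against CRS. AA543186 averaged 0.97, 1.33 and 1.22 CPM, with a log2 fold change of -0.13 ± 0.25 (-0.66 to 0.41). Their wide intervals reach 0.80 and -0.66 on the log2 scale. Gm25220, a small nuclear RNA inside Man1b1, had too few reads to test.

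**Figure D3:**
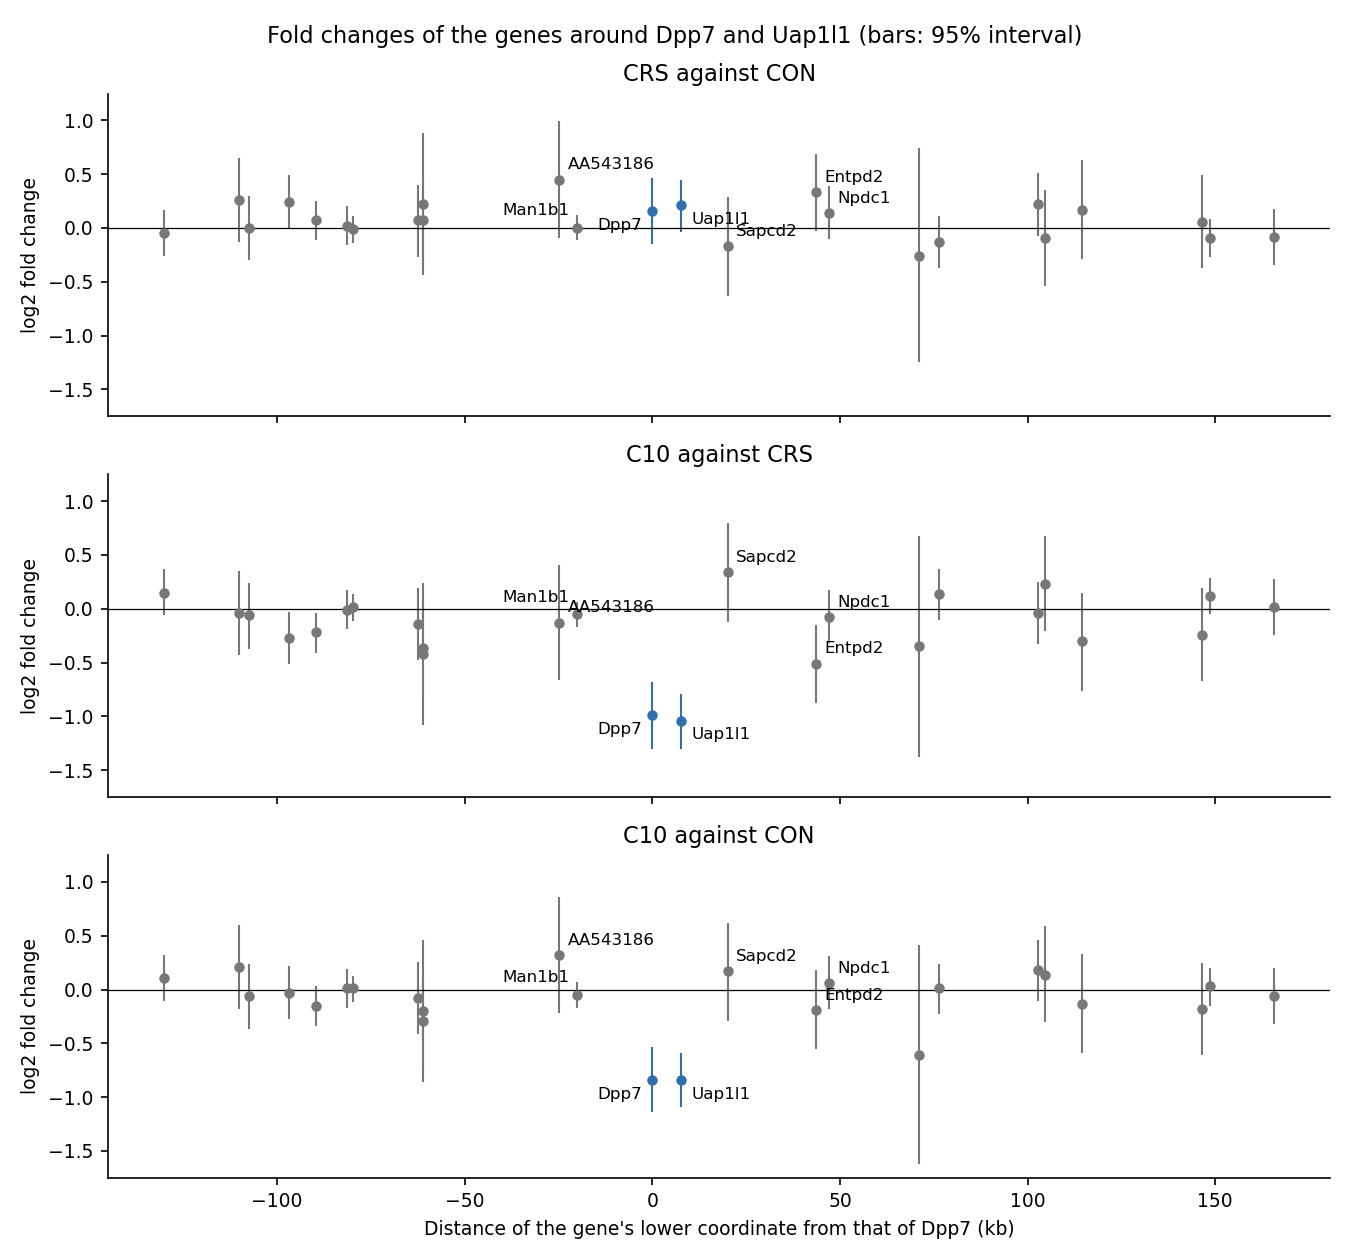
Log2 fold change (vertical axis) with its 95% interval for Dpp7, Uap1l1 and the 23 other tested genes that start within 152276 bases below or 167724 bases above the lower coordinate of Dpp7, against distance in kb from Dpp7, for each of 3 comparisons. Dpp7 and Uap1l1 lie at -0.99 and -1.04 in C10 against CRS, and the next lowest gene of the stretch is Entpd2 at -0.51.

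In this wider stretch 0 of 23 other tested genes were called by edgeR in any comparison. At an unadjusted p under 0.05 were 1, 3 and 0 in CRS against CON, C10 against CRS and C10 against CON. Of all genes 14%, 13.2% and 13.1% had such a p, and edgeR called 0.00547%, 0.082% and 0.159%. The 3 of 23 lie near that share, and the 0 called are no result about the stretch. Fut7, a fucosyltransferase of leukocyte glycans, had the lowest value in C10 against CON, at -0.61 ± 0.48.

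The paralogs Uap1 and Prcp were not called by edgeR in CRS against CON, C10 against CRS or C10 against CON. Of all genes it called 0.00547%, 0.082% and 0.159%, so the lack of a call is no result about the paralogs. Their values are given instead. Uap1 held 64.9 to 71.8 CPM in CON, 55.8 to 71.8 in CRS and 60.9 to 73.4 in C10, so all 3 ranges overlapped. Its log2 fold change was 0.10 ± 0.07 (95% interval -0.05 to 0.24) in C10 against CRS and -0.01 ± 0.07 (-0.16 to 0.13) in C10 against CON. Expressed per length, Uap1l1 made up 44.2% ± 5.54 of the summed FPKM of Uap1l1 and Uap1 in CON, 50.2% ± 3.28 in CRS and 31.3% ± 3.18 in C10 (SD, n = 6 each). The C10 range was 26.8 to 35.0%, below the CON range of 38.2 to 51.8% and the CRS range of 46.3 to 53.6%. This share is a description only. Uap1l1 enters it and was chosen for its fall in C10 against CRS, so the lower share in C10 restates that fall. Prcp varied widely, with 36.8 to 66.8 CPM in CON, 23.1 to 66.8 in CRS and 27.7 to 44.4 in C10. Its log2 fold change was -0.22 ± 0.23 (-0.71 to 0.26) in C10 against CRS and -0.52 ± 0.23 (-1.0 to -0.04, edgeR adjusted p = 0.337) in C10 against CON. The last interval contains the value of Dpp7, and differences between a paralog and the pair were not tested.

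Genes of UDP-GlcNAc synthesis and use were counted next, without Uap1l1. The list has 18 symbols, among which Mgea5 and Oga name the same gene, tested as Mgea5. Of these 15 were tested and 0 were called by edgeR in any comparison, while 2, 5 and 4 had an unadjusted p under 0.05 in CRS against CON, C10 against CRS and C10 against CON. Of all genes 14%, 13.2% and 13.1% had such a p, and 0.00547%, 0.082% and 0.159% were called by edgeR. DESeq2 called 0, 3 and 3 of the 15, and 178, 351 and 309 of all genes. Limma-voom called 0, 1 and 3 of the 15, and 940, 548 and 252 of all genes. The median log2 fold change of the list was -0.02, 0.01 and -0.01 in these comparisons, beside 0.004, 0.008 and 0.012 for all genes.

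Gfpt1, which opens the hexosamine pathway, had a log2 fold change of 0.01 ± 0.10 in C10 against CRS. All 5 genes with an unadjusted p under 0.05 in that comparison were below 0. They were Renbp, a renin-binding epimerase of N-acetylglucosamine (-1.02 ± 0.22, edgeR adjusted p = 0.0993), Gnpda1, a glucosamine phosphate deaminase (-0.59 ± 0.14, adjusted p = 0.105), the kinase Nagk (-0.29 ± 0.07, adjusted p = 0.106), the deacetylase Amdhd2 (-0.44 ± 0.15, adjusted p = 0.203) and the sialic acid activating enzyme Cmas (-0.22 ± 0.08, adjusted p = 0.248). Gnpda2, the other glucosamine phosphate deaminase, had 0.23 ± 0.13 in that comparison. In C10 against CON, Renbp (-1.06 ± 0.22, edgeR adjusted p = 0.0735), Gnpda1 (-0.60 ± 0.14, adjusted p = 0.108) and Amdhd2 (-0.57 ± 0.15, adjusted p = 0.131) had the smallest p. In CRS against CON these were Cmas (0.21 ± 0.08), Ogt (0.22 ± 0.10), the transferase that puts O-GlcNAc on proteins, and Uap1 (-0.11 ± 0.07), none of which passed.

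Dipeptidyl and prolyl peptidases, without Dpp7, had 16 of 17 listed genes tested. EdgeR called 0 in CRS against CON, 0 in C10 against CRS and 1 lower in C10 against CON, with 0, 2 and 3 at an unadjusted p under 0.05, while DESeq2 and limma-voom each called 0, 1 and 1. The shares of all genes with such a p or called are those given above, and 2 or 3 of 16 lie near the first. The called gene was Tpp1, the lysosomal tripeptidyl peptidase, at -0.55 ± 0.11 (edgeR adjusted p = 0.0431), which had -0.51 ± 0.11 (edgeR adjusted p = 0.0752) in C10 against CRS. That call was lost in 16 of 28 alternatives, among them the fit without a filter, the replicate block (adjusted p = 0.0787) and the fits without any 1 C10 library. Fap, a fibroblast surface peptidase, had -0.30 ± 0.17 in C10 against CRS and -0.48 ± 0.17 in C10 against CON, and Prepl, a cytosolic relative of prolyl endopeptidase, had 0.21 ± 0.09 in C10 against CRS. The list's median was -0.13, 0.02 and -0.09 in the 3 comparisons. Values below 0 numbered 15, 6 and 13 of 16, beside 49.2%, 48.3% and 47.4% of all genes. In CRS against CON the smallest p belonged to Prep (-0.16 ± 0.08), Dpp3 (-0.11 ± 0.07) and Dpp8 (-0.12 ± 0.07).

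Lysosomal hydrolases had values below 0 in C10 for nearly every listed gene, of which few passed the test. Of 35 tested, edgeR called 0 in CRS against CON, 1 lower in C10 against CRS and 4 lower in C10 against CON. Of all genes it called 0.00547%, 0.082% and 0.159%. At an unadjusted p under 0.05 were 4, 20 and 28 of the 35, and 14%, 13.2% and 13.1% of all genes. DESeq2 called 0, 11 and 12 of the 35, and 178, 351 and 309 of all genes. Limma-voom called 3, 10 and 11 of the 35, and 940, 548 and 252 of all genes. The gene called by edgeR in C10 against CRS was Fuca2, a fucosidase (-0.52 ± 0.07, edgeR adjusted p = 0.00302). Those it called in C10 against CON were the sulfatase Arsa (-0.55 ± 0.08, edgeR adjusted p = 0.0108), the aspartic protease Ctsd (-1.03 ± 0.18, adjusted p = 0.0275), the hexosaminidase subunit Hexa (-0.89 ± 0.16, adjusted p = 0.0327) and Tpp1. Fuca2 and Arsa passed in all 28 alternatives, whereas the call was lost in 9 for Ctsd, 10 for Hexa and 16 for Tpp1, in each case with the replicate block and without any of C10 1, 2, 4, 5 or 6. The number below 0 was 32, 34 and 35 of 35 in the 3 comparisons, beside 49.2%, 48.3% and 47.4% of all genes, and the list's median was -0.13, -0.30 and -0.50. In CRS against CON the smallest p belonged to Arsa (-0.25 ± 0.08), Fuca2 (0.22 ± 0.07) and Arsb (-0.38 ± 0.15). Ctsd had -0.88 ± 0.18 in C10 against CRS. Tpp1 and Ctsc are in both this list and the peptidase list, and the 2 comparisons with C10 share its libraries.

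**Figure D4:**
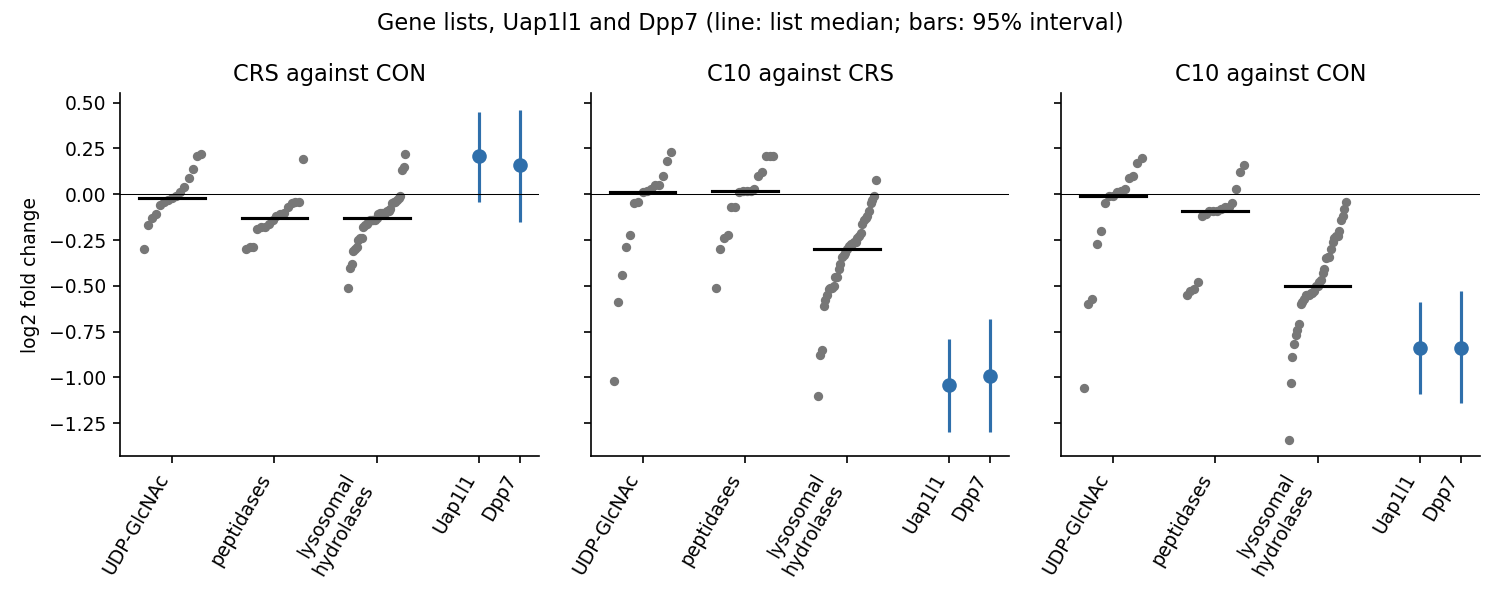
Log2 fold changes (vertical axis) of the tested genes of 3 lists (points, with the list median as a line) beside Uap1l1 and Dpp7 with 95% intervals, in CRS against CON, C10 against CRS and C10 against CON. The lysosomal hydrolases have medians of -0.13, -0.30 and -0.50, and the UDP-GlcNAc and peptidase lists have medians between -0.13 and 0.02.

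The genes whose pattern over all 18 libraries was most like the pair included each other. Among the 16648 genes averaging 1 CPM or more, Dpp7 had the highest Pearson r with Uap1l1, 0.958, and Uap1l1 the highest with Dpp7. Next for Uap1l1 came Lamp1, a lysosomal membrane glycoprotein (0.933), Slc16a7, a monocarboxylate transporter (0.919), Vegfb, a vascular growth factor (0.91), and Hexa (0.895). For Dpp7 they were Lamp1 (0.948), the lysosomal membrane protein Glmp (0.935), the lysosomal tetraspanin Cd63 (0.916) and Hexa (0.912). These r describe 18 libraries that share depth and group differences and include the comparison that chose the pair.

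With group means removed, r between Uap1l1 and Dpp7 was 0.805, the second highest for Uap1l1 after Slc16a7 (0.859) and the third for Dpp7 after Lamp1 (0.839) and Glmp (0.808). Among the neighbours, Man1b1 had r 0.43 with Uap1l1 and 0.37 with Dpp7 over all libraries, Entpd2 had 0.444 and 0.437, Npdc1 had -0.018 and 0.009, Sapcd2 had -0.239 and -0.083, and AA543186 had -0.174 and -0.215. With group means removed Sapcd2, which held only 23 to 64 reads per library, had 0.614 with Dpp7, 134th of 16648 genes. It had 0.37 with Uap1l1. The other neighbours then ran from -0.395 (AA543186 with Uap1l1) to 0.344 (Man1b1 with Uap1l1). Uap1 had -0.28 with Uap1l1, and Prcp had 0.464 with Dpp7.

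The genes most like the pair had lower values in C10 too, and the measure of likeness includes that comparison. In C10 against CRS the log2 fold change was -0.40 ± 0.08 for Lamp1, -0.61 ± 0.14 for Slc16a7, -0.54 ± 0.09 for Vegfb, -0.42 ± 0.09 for Glmp and -0.81 ± 0.13 for Cd63. In C10 against CON, where Lamp1 (-0.42 ± 0.08, edgeR adjusted p = 0.0321) and Hexa passed, Cd63 had -0.58 ± 0.13 (edgeR adjusted p = 0.103).

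Markers of macrophages, which are rich in lysosomes, had lower values in C10 too. The summed level of 7 macrophage markers was 391 to 967 CPM in CON, 173 to 974 in CRS and 258 to 548 in C10, with 6 of 7 below 0 in C10 against CRS (median log2 fold change -0.55) and 7 of 7 in C10 against CON (-0.76). They were also below 0 in CRS against CON for 7 of 7 (-0.41). Uap1l1 and Dpp7 had 0.21 ± 0.12 and 0.16 ± 0.14 in CRS against CON, and neither passed. Both were chosen by their fall from the same CRS libraries, which favours values above 0 there. Their sign in CRS against CON therefore cannot be set against that of the markers. Of all genes 48.3%, 47.4% and 49.2% were below 0 in these comparisons. EdgeR called 0 of the 7 in each, with 1, 5 and 1 at an unadjusted p under 0.05, while DESeq2 and limma-voom each called 0, 1 and 1. Of all genes 13.2%, 13.1% and 14% had such a p, and 1 of 7 lies near that share. Of all genes DESeq2 called 351, 309 and 178, and limma-voom 548, 252 and 940. The lowest sums in CRS were those of CRS 2 and CRS 5, libraries that were among the least like their group, at 173 and 257 CPM, with Uap1l1 at 65.6 and 65.4 CPM and Dpp7 at 22.9 and 28.1 CPM. The lowest sum in C10 was 258 CPM in C10 4, with Uap1l1 at 30.3 and Dpp7 at 11.2 CPM. In CON it was 391 CPM in CON 1, with Uap1l1 at 45.3 and Dpp7 at 21 CPM. The highest sums were 967 CPM in CON 4, 974 in CRS 1 and 548 in C10 3. In these libraries Uap1l1 stood at 58.9, 68 and 34.5 CPM, and Dpp7 at 21.6, 29.2 and 15.1 CPM. Osteoclast markers summed to 178 to 475, 79.4 to 316 and 99.1 to 281 CPM in CON, CRS and C10, and neutrophil markers to 129 to 363, 15.4 to 342 and 122 to 271 CPM. Of 6 osteoclast markers tested, 6 were below 0 in CRS against CON (median -0.55), 2 in C10 against CRS (0.11) and 6 in C10 against CON (-0.59), and of 4 neutrophil markers 4, 0 and 3 were below 0 (medians -0.55, 0.28 and -0.16). Sums for plasma cells were 135 to 1100, 77.1 to 1260 and 158 to 1470 CPM, for olfactory neurons 2200 to 5240, 2490 to 6460 and 3160 to 5660 CPM, and for nasal epithelium and glands 15500 to 26600, 15600 to 43400 and 19800 to 32500 CPM. In C10 against CRS and C10 against CON the median log2 fold change was 0.21 and 0.50 for plasma cells, -0.09 and 0.25 for olfactory neurons and 0.06 and 0.14 for epithelium and glands. Of the 8 epithelium and gland markers 4 and 3 were below 0 there, and 4 and 1 had an unadjusted p under 0.05. EdgeR called 0 and 0 of these 8, and DESeq2 and limma-voom each called 1 and 0. Such a p was held by 0 and 2 of the 6 osteoclast markers. No plasma cell, olfactory neuron or neutrophil marker had such a p in either comparison. No marker of the 6 lists was at 0 in any group, and the part of any of these cell types in the result was not tested.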

How the data were processed

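The authors deposited read counts per gene (whole numbers) and FPKM values for the same 18 libraries. Reads were placed on mm10, per the submitters' processing notes. The sources used here do not give the aligner, counter, annotation release or use of strand. Per library, the deposited FPKM equal the counts over gene length times a constant. Counts of all 18 libraries were fitted with edgeR 4.0.16 (quasi-likelihood F-test, TMM factors of 0.887 to 1.07, filterByExpr by group, two-sided, Benjamini-Hochberg over 18291 genes, threshold 0.05). R 4.3.3, limma 3.58.1, DESeq2 1.42.0 and Python 3.11.15 with scipy 1.17.1 were used. The fit was checked on simulated counts with 200 genes changed in C10, in equal parts 1.5-fold and 2-fold. In C10 against CRS it recovered 42 of the 1.5-fold and 84 of the 2-fold changes, with 6 other calls. In C10 against CON these were 40, 84 and 7. A gene that was not called may thus still differ. Depth is 15883573 to 18433866 counts per library.

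The 2 genes and all lists were chosen with earlier results of these data known. Named genes are Uap1l1, Dpp7, their expressed neighbours, Uap1 and Prcp, every called member and the 3 of smallest p of each list, and the 5 genes most correlated with each of the pair (log2 CPM, prior count 2), skipping models named only by a Gm number or a Rik name. Gfpt1, Gnpda2, Fut7, the genes next to the threshold and those of the promoter counts were named after their values were seen. Lists are named by function: UDP-GlcNAc, peptidases, lysosomal hydrolases and 6 marker lists. Alternatives were RLE factors, no filter, a stricter filter, a replicate block, only 2 groups, DESeq2, limma-voom, limma on log2(FPKM + 1) and log2(FPKM + 0.1), a wider window, and leaving out libraries.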

Additional observations from a re-analysis of the deposited data

Results flagged for a closer look

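Of 30 groups of 6 libraries tested for a library far from the rest, 3 held one, where chance gives about 1 in 20. Dpp7 in CON 5 stood at 35.0 CPM, with the next CON library at 23.7, a gap of 0.693 of the group's range that is above Dixon's 95% critical value for 6 libraries. Sapcd2 in C10 5 stood at 3.62 CPM, with the next at 2.87 and a gap of 0.75 of the range. AA543186 in CRS 2 stood at 2.29 CPM, with the next at 1.39 and a gap of 0.665 of the range.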

How the results depend on the processing

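In CRS against CON and C10 against CON, Uap1l1 kept its side of 0.05 in all 28 alternatives, and Dpp7 in all but the 7 C10 against CON fits named above, where leaving out 1 library gave -0.89 to -0.69. With a replicate block, genes called numbered 0 in CRS against CON (1 without the block), 13 in C10 against CRS (15) and 12 in C10 against CON (29); hydrolases called in C10 against CON numbered 1 (4) and peptidases 0 (1). Replicate numbers were not taken to pair the libraries, since correlations of same-numbered libraries ran from -0.574 to 0.519, with 3, 4 and 1 of 6 pairs over 0.1 in CRS against CON, C10 against CRS and C10 against CON, and 5 of 18 libraries correlated best with their own number.

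Genes called in CRS against CON numbered 3 (stricter filter), 0 (2 groups), 178 (DESeq2), 940 (limma-voom), 2 (both FPKM fits) and 0 to 994 (1 library left out, 994 without CRS 1). In C10 against CRS they numbered 23 (stricter filter and FPKM + 1), 9 (2 groups), 351 (DESeq2), 548 (limma-voom), 100 (without CRS 2 and 5) and 7 to 81. In C10 against CON they numbered 17 (no filter), 161 (2 groups), 309 (DESeq2), 252 (limma-voom), 74 (without CRS 2 and 5) and 3 to 110.

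Neighbours called in C10 against CRS numbered 1 by limma-voom. UDP-GlcNAc genes called in C10 against CRS numbered 3 (DESeq2), 1 (limma-voom), 3 (without CRS 2 and 5) and 0 to 3, and in C10 against CON 2 (2 groups), 3 (DESeq2 and limma-voom), 1 (without CRS 2 and 5) and 0 to 2. Peptidases called in C10 against CRS numbered 1 (DESeq2, limma-voom, without CRS 2 and 5) and 0 to 1, and in C10 against CON 0 (no filter, FPKM + 1) and 0 to 1. Hydrolases called in CRS against CON numbered 3 (limma-voom) and 0 to 3, in C10 against CRS 2 (stricter filter), 11 (DESeq2), 10 (limma-voom), 7 (without CRS 2 and 5) and 1 to 5, and in C10 against CON 9 (2 groups), 12 (DESeq2), 11 (limma-voom), 7 (without CRS 2 and 5) and 1 to 9. The cause was not tested.

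Values near 0 changed sign: Man1b1 in CRS against CON (-0.02 to 0.03 with 1 library left out), Npdc1 in C10 against CRS (0.04 without CRS 2 and 5) and C10 against CON (-0.02 to 0.13), AA543186 in C10 against CRS (0.08 by limma-voom, 0.02 without CRS 2 and 5, -0.26 to 0.08), Uap1 in C10 against CON (0.01 by limma-voom, -0.04 to 0.01) and the ratio of Uap1l1 to Dpp7 in C10 against CON (-0.047 to 0.033). Within-group r with 1 library left out was 0.735 to 0.927 in CON and 0.724 to 0.974 in CRS. Counting error of the pair stayed below its spread within groups, whereas AA543186 had only 11 to 37 reads per library.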

Other observations

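The promoter letters of other genes can be set beside those of Dpp7. Of the 6 genes named as most like the pair over all libraries, 5 are in the RefSeq promoter table, and 0 of these held TCACGTGA and 1, Lamp1, held CACGTG. Of the 35 lysosomal hydrolases 28 are in the table. TCACGTGA was in 3 of the 28 (10.7%), the protective protein Ctsa, the protease Ctsd and the galactosidase Gla, beside 1.12% of all genes in the table. CACGTG was in 10 of the 28 (35.7%), among them Arsa, Ctsf and Lgmn, beside 8.09% of all genes in the table. These are counts of letters in windows of 300 bases, with no test, and no measurement of binding is used here.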
